A study of Mus musculus with 18 samples.

Results

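The heat shock proteins and the DnaJ cochaperones were followed across 18 Affymetrix mouse expression arrays of hepatoma cells. Members were taken by a rule on the gene symbol, which was set with earlier results of these data known. It took the probe sets that carry a single symbol beginning with Hspa, Hspb, Hspd, Hspe, Hsph, Hsp90, Dnaja, Dnajb or Dnajc and a number. The rule found 72 genes with 174 probe sets, of 18193 genes with 34945 probe sets on the array. It took in 3 genes of the HSP110 family, 2 of HSP90, 11 of HSP70, the chaperonin genes *Hspd1* and *Hspe1*, 8 small heat shock proteins, 4 DNAJA, 13 DNAJB and 27 DNAJC genes. It also took in *Hspbp1* and *Hspbap1*, which encode binding partners of heat shock proteins and are not chaperones themselves. The 3 probe sets of *Dnajc19* carry 2 symbols each and were left out, and *Hsp90ab1* was not analysed here.

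The cells were wild-type Hepa-1c1c7, a mouse hepatoma line, and its mutant derivative *c*35, whose aryl hydrocarbon receptor (AHR) is unable to bind DNA. Each line received the dioxin TCDD, the polycyclic hydrocarbon benzo[*a*]pyrene (BaP) or the solvent dimethyl sulfoxide (DMSO) over 8 hr, giving 6 groups of 3 arrays. The replicates are described as biological. BaP was given at 5 µM to both lines and TCDD at 5 nM to *c*35 cells, while the labels state no TCDD dose for the wild-type arrays. Cells that received DMSO are called naive. Because *c*35 is 1 derivative line, its receptor mutation and any other difference between the lines cannot be told apart.

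Chaperones hold, fold and refold other proteins. HSP70 does so in cycles of ATP hydrolysis that DnaJ proteins start and that nucleotide exchange factors, the HSP110 proteins among them, bring to an end. Separate sets of these proteins serve the cytosol, the mitochondria and the endoplasmic reticulum (ER), where HSPA5, also called BiP, is the HSP70. HSP90 has a particular link to these cells, since the AHR is believed to wait in the cytosol bound to HSP90 until a ligand arrives. It then moves to the nucleus, where it induces *Cyp1a1* and other genes. The study that produced these arrays also reported the receptor at many promoters in naive wild-type cells.

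All values are log2 signals, so that a difference of 1 is a doubling. Where a gene had several probe sets, the one with the highest average signal stands for it, and levels of different genes are not compared. Genes outside the members are given by that probe set alone. A gene was called at an adjusted p below 0.05 (limma, Benjamini-Hochberg over 45037 probe sets) and a change above 1.5-fold. For the ligands in *c*35 cells the limit was an adjusted p below 0.1, whatever the size of the change. Of the 72 members, 17 had a mean signal below 5.66, the median over all probe sets, and 7 had one below 4. Among the latter were the heat-inducible HSP70 genes *Hspa1a*, which lay between 2.25 and 2.72 on the 18 arrays, and *Hspa1b*, between 2.27 and 2.87. These genes are near-identical copies of each other, and their probes may not tell them apart.

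*Cyp1a1* marked the ligand response, from 9.61 to 9.81 on the naive wild-type arrays to 12.92 and above on every ligand-treated wild-type array. In *c*35 cells it lay at 8.32, 8.34 and 8.32 on DMSO replicates 1 and 2 and BaP replicate 3 and at 6.23 or below on the other 6 arrays, so those 3 arrays stood apart whatever their treatment. Wild-type DMSO replicate 1 stood apart in another way: the 3′ minus 5′ signal of the *Actb* control, a measure of RNA breakdown, was 1.38 there, against 0.73 to 1.21 on the other wild-type arrays and 0.30 to 0.53 on the *c*35 arrays. The same signal of the *Gapdh* control did not single out that replicate, at 0.16 against 0.01 to 0.24 on the other wild-type arrays. The members lay further from their group means on wild-type DMSO replicate 1 than on any other array. Their root mean square deviation was 0.200 there, against 0.0687 to 0.148 elsewhere. Of 11 hepatocyte markers measured, 8 were above the median signal in both lines. So were 5 of 6 fibroblast, 3 of 5 leukocyte and 1 of 4 endothelial markers. Of the leukocyte markers *Ptprc* was lowest, at 3.05 in wild-type and 2.87 in *c*35 cells, and *Csf1r* highest, at 10.75 and 12.03. No marker of these lists was called with either ligand in wild-type cells, whereas 7 of the 26 were between the naive lines, as given with that comparison.

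In wild-type cells the ligands raised few of the chaperone genes. *Hspa4l*, a member of the HSP110 family of HSP70 exchange factors, was the one gene called with TCDD, and *Hspa4l* and *Dnajb9*, a DnaJ cochaperone of BiP in the ER, were the 2 called with BaP. No member was called lower with either ligand. The calls were 1 of 72 members (1.39%) with TCDD, where 0.379% of all genes were called (0.341% higher and 0.0385% lower), and 2 of 72 (2.78%) with BaP, where 1.32% were called (0.885% higher and 0.434% lower). Without the minimum change 2 members passed with TCDD and 6 with BaP, against 1.03% and 6.48% of all genes. The arrays of ligand and DMSO did not overlap for 17 members (23.6%) with TCDD and 27 (37.5%) with BaP, against 18.3% and 23.8% of all genes. The median change over the members was 0.05 with each ligand, beside 0.01 with TCDD and 0.00 with BaP over all genes. The DMSO arrays serve both comparisons.

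**Figure D1:**
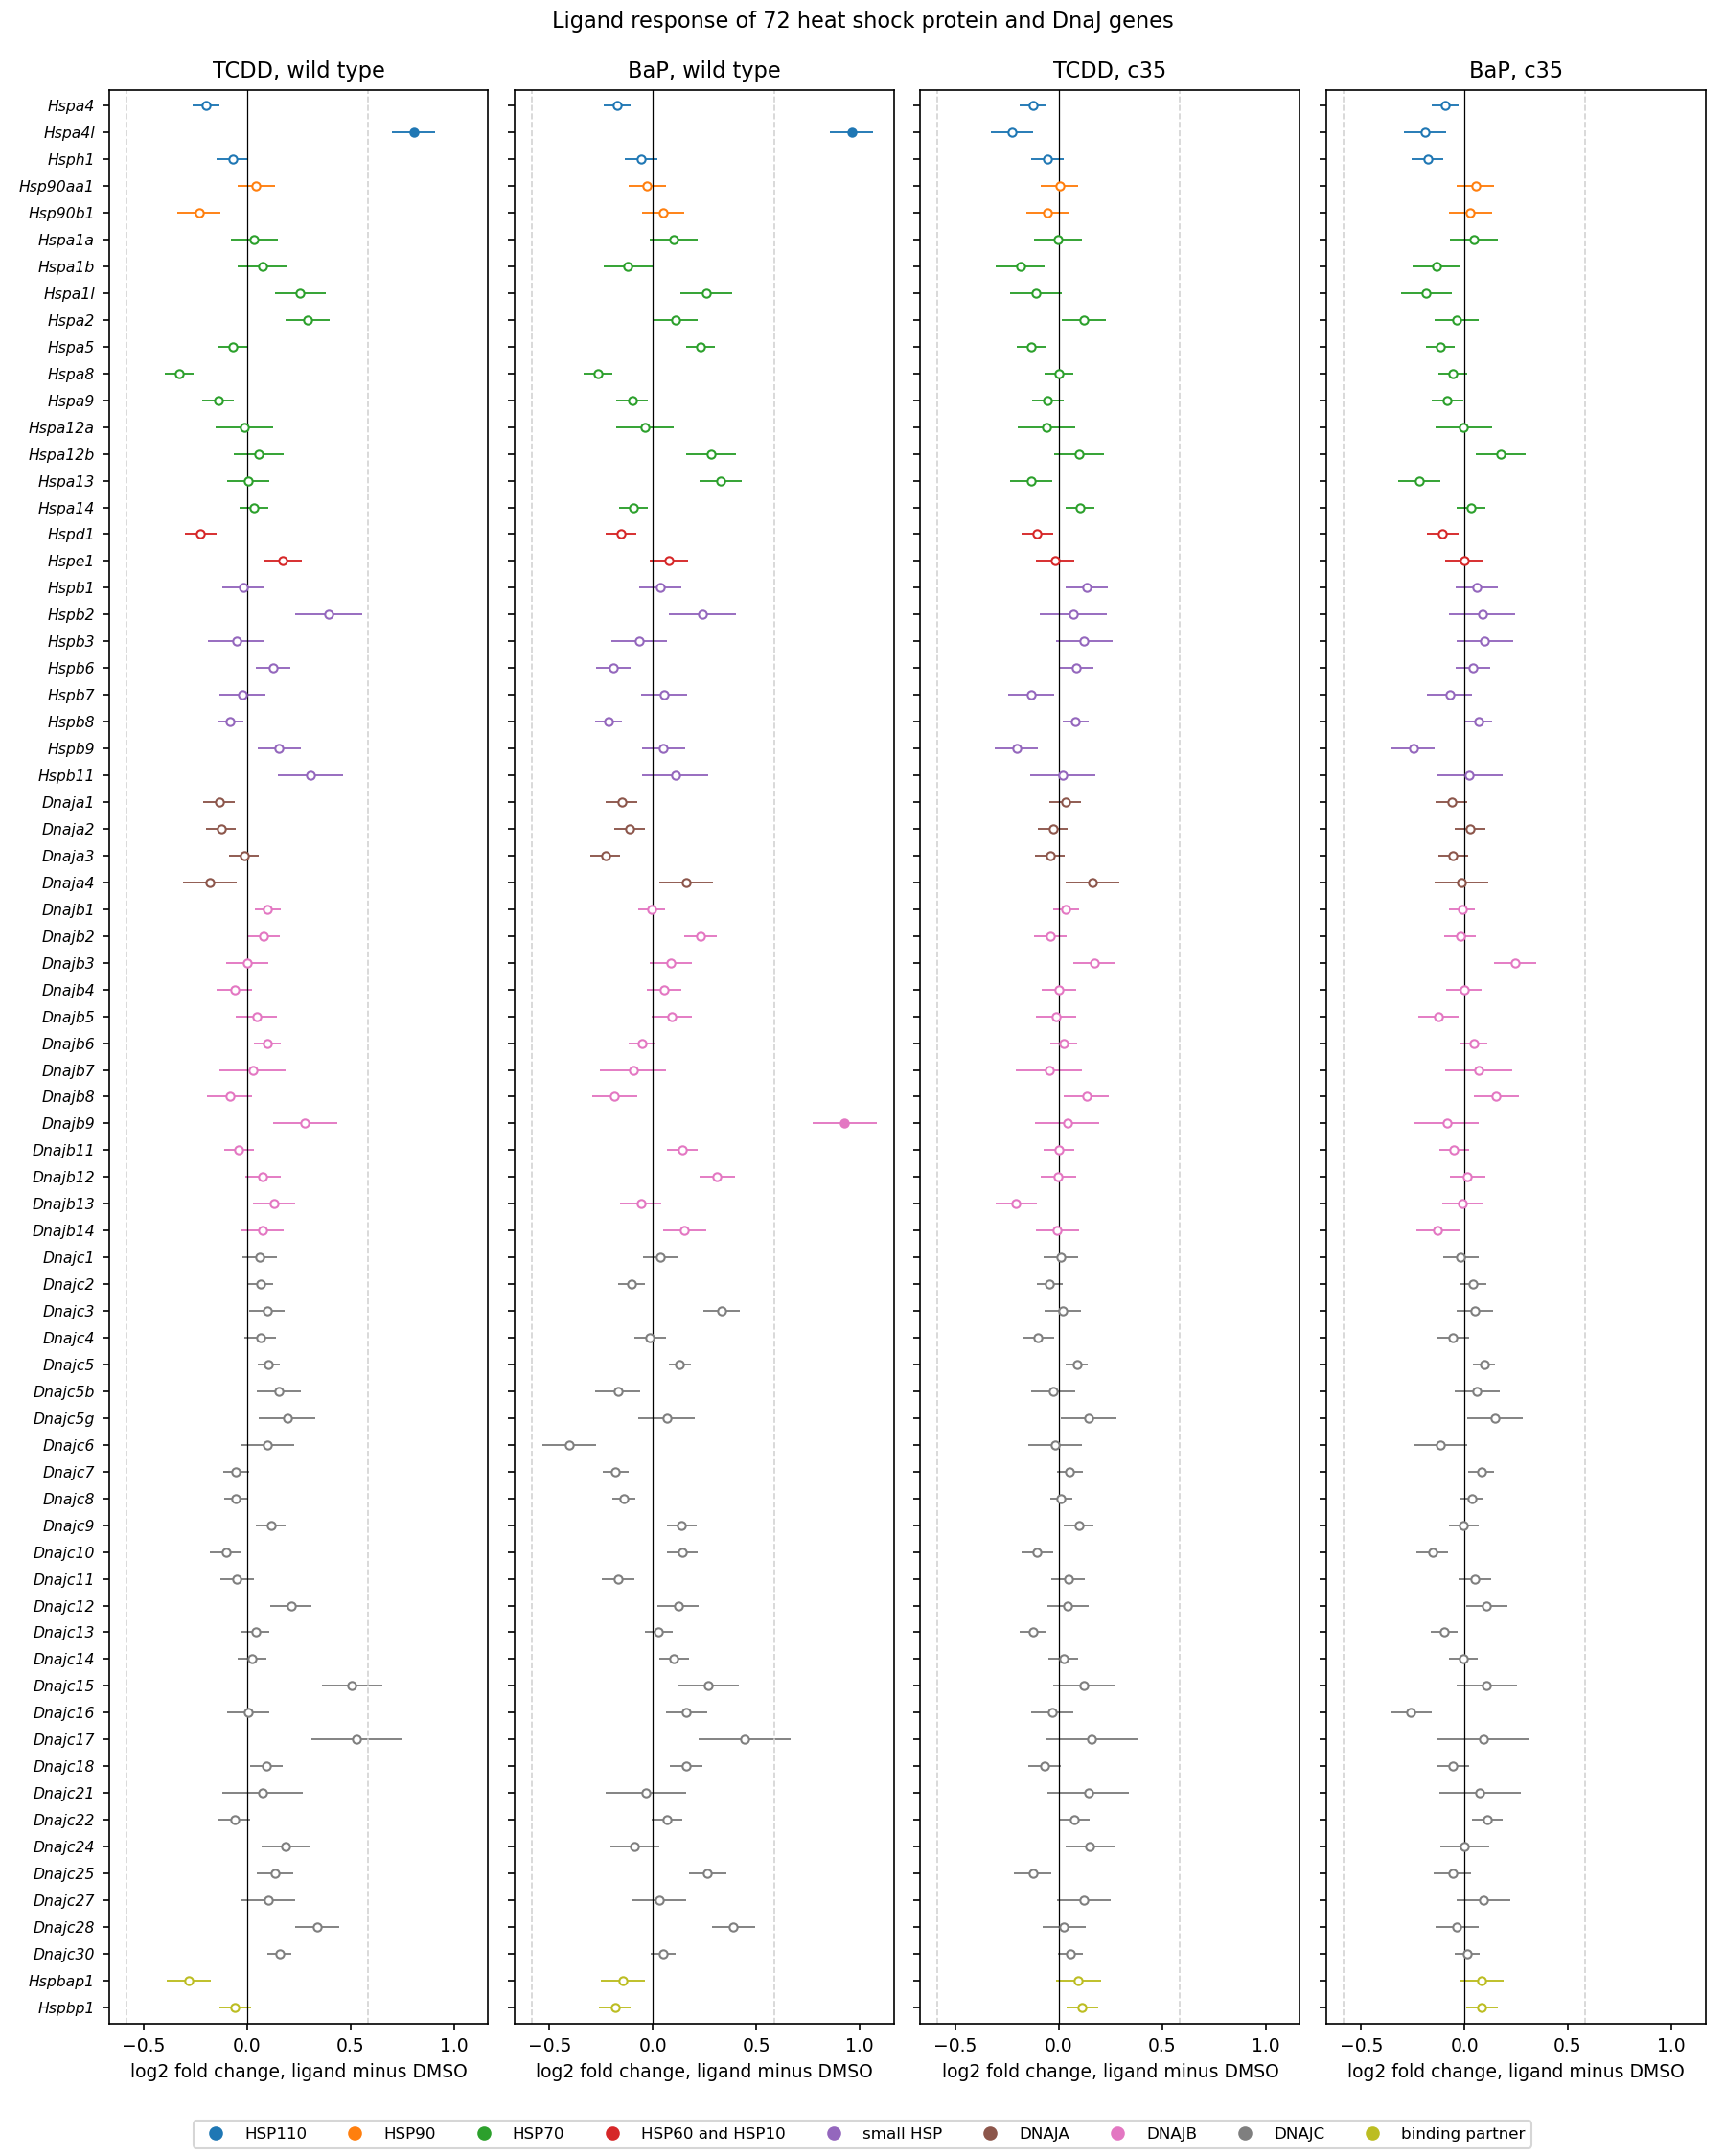
Log2 fold change (horizontal axis, ligand minus DMSO) of the 72 members, 1 row per gene coloured by class, for TCDD and BaP in wild-type and *c*35 cells; bars are standard errors, dashed lines mark 1.5-fold, and filled points are called. *Hspa4l* stands at 0.81 and 0.96 and *Dnajb9* at 0.93 with BaP in wild-type cells, and no point is filled in *c*35 cells.

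The 250 bases upstream of the RefSeq start of *Hspa4l* are shown because this gene rose with both ligands, and those of *Hsph1*, another HSP110 gene, because it did not. They come from mouse build GRCm38.p6, *Hspa4l* from chr3:40745363-40745612 on the plus strand and *Hsph1* from chr5:149636337-149636586 on the minus strand, each 5′ to 3′. RefSeq gives *Hsph1* a second start nearby, whose window is not shown. Capitals mark a heat shock element core, TTCNNGAA, which begins 33 bases upstream of the *Hsph1* start.
Hspa4l: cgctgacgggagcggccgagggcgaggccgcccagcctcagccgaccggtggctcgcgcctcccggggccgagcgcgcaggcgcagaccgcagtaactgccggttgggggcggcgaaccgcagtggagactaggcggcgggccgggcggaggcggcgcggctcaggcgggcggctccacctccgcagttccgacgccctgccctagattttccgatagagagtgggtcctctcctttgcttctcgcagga
Hsph1: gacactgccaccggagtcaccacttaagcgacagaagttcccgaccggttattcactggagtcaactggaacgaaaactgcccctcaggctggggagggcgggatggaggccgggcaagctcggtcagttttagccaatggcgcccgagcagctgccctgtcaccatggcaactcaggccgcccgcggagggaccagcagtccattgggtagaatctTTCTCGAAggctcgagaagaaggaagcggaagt
On both strands of the *Hspa4l* window neither GCGTG, the core of the AHR response element, nor TTCNNGAA nor its counterpart GAANNTTC was found. Windows of this kind were at hand for 59 members. GCGTG stood in 29 of them (49.2%) and in 30.9% of 27025 genes, GAANNTTC in 11 (18.6%) and in 7.73%, and TTCNNGAA in 6 (10.2%) and in 8.11%. These matches are descriptions of letters and were not tested for binding. Bases outside the 250 were not searched, so elements further from the start are not covered.

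Of the HSP110 genes, *Hspa4l* was measured by 5 probe sets, of which 1418253_a_at had the highest mean. On it the gene gave 9.76, 9.70 and 9.78 in the 3 naive wild-type cultures, 10.47, 10.58 and 10.60 with TCDD and 10.73, 10.68 and 10.71 with BaP. The rise was 0.81 ± 0.10 (SE) with TCDD (adjusted p = 0.000215) and 0.96 ± 0.10 with BaP (adjusted p = 6.29e-06). All 6 ligand-treated arrays were above all 3 naive arrays. Each BaP array was also above each TCDD array, but the difference between the ligands, at -0.16 for TCDD minus BaP, was not called, with a 95% interval from -0.37 to 0.06 (adjusted p = 0.565). The other 4 probe sets rose as well, by 0.82 to 1.09 with TCDD and by 0.94 to 1.42 with BaP, and all 4 were called with both ligands. The call with each ligand held under all 16 alternative settings, with rises from 0.78 to 0.92 with TCDD and from 0.94 to 1.19 with BaP. The setting without a minimum change could not end a call.

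In *c*35 cells the same probe set of *Hspa4l* gave 10.19, 10.19 and 10.01 with DMSO, 9.91, 9.85 and 9.95 with TCDD and 10.00, 9.60 and 10.22 with BaP. The TCDD arrays were thus all below the DMSO arrays and the BaP arrays spanned them, and neither change was called, at -0.23 (adjusted p = 0.962) and -0.19 (adjusted p = 1). Without the 3 *c*35 arrays of high *Cyp1a1* signal, of which 2 are DMSO arrays, the TCDD difference was -0.11 and the BaP difference -0.21. The response in wild-type cells exceeded that in *c*35 cells by 1.03 ± 0.15 (SE) with TCDD (adjusted p = 0.00145) and by 1.15 ± 0.15 with BaP (adjusted p = 0.000156). On the 4 other probe sets this excess was 1.08 to 1.36 with TCDD and at least 1.06 with BaP, called in every case. *Hspa4l* was the one member for which the response to TCDD differed between the lines, where 0.28% of all genes were called. For BaP it was *Hspa4l* and *Dnajb9*, where 1.34% were.

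**Figure D2:**
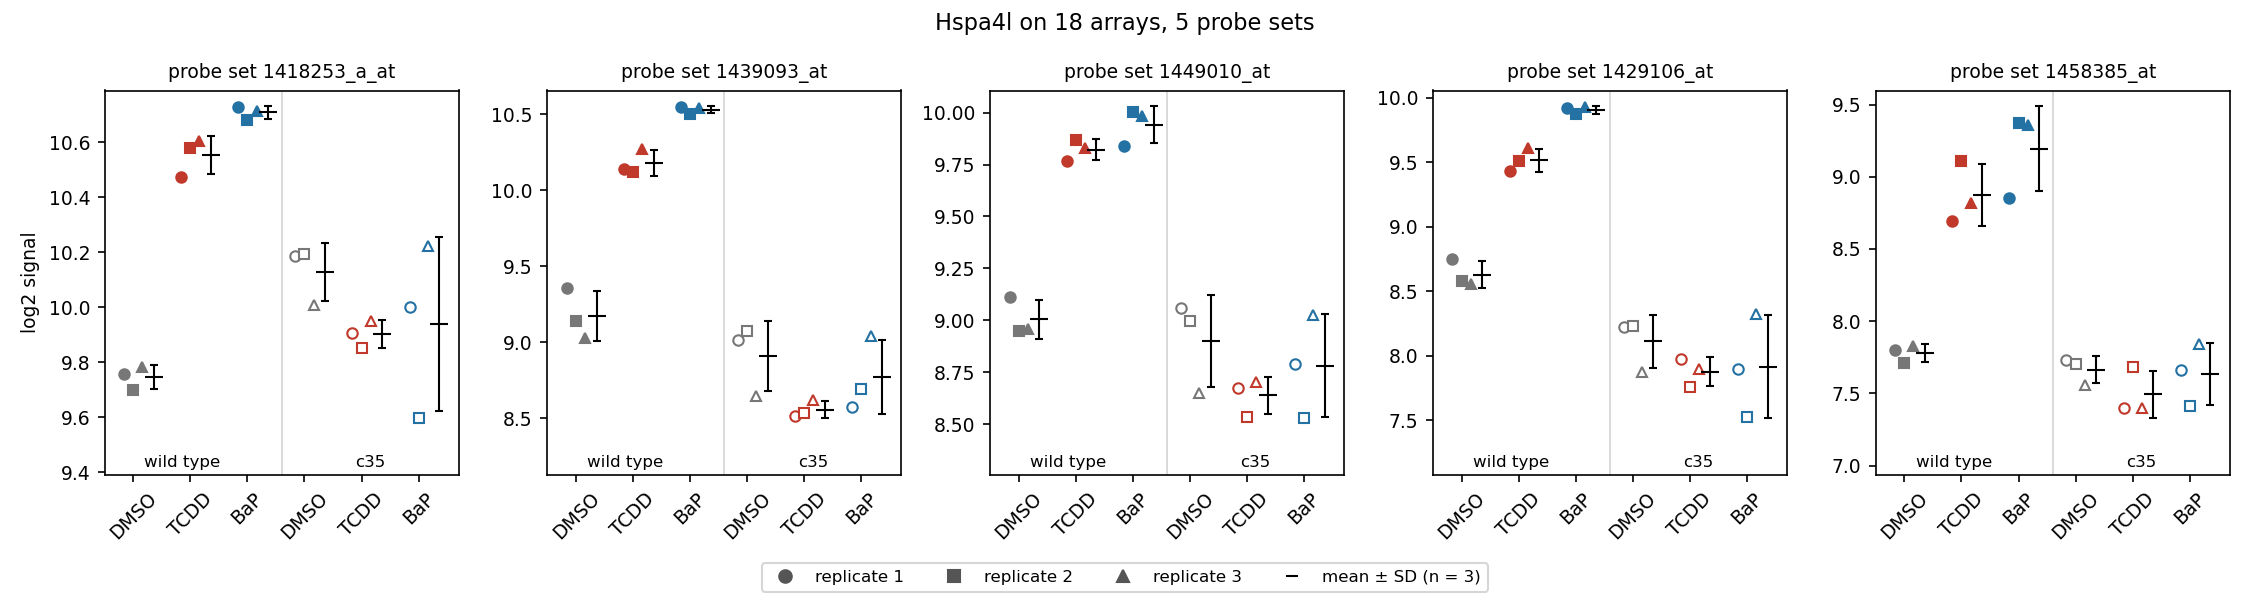
Log2 signal (vertical axis, a scale of its own in each panel) of the 5 *Hspa4l* probe sets on 18 arrays by treatment, wild type filled and *c*35 open; marker shapes give the replicate, and the horizontal dashes with bars the mean ± SD of 3 arrays. On every probe set the 6 ligand-treated wild-type arrays lie above the 3 naive ones, as in 10.47 to 10.73 against 9.70 to 9.78 in the leftmost panel, and the *c*35 groups do not rise.

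The *c*35 arrays with the highest *Hspa4l* signal were the 3 with the highest *Cyp1a1* signal, on each of the 5 probe sets. On 1418253_a_at they lay at 10.19 to 10.22 and the other 6 *c*35 arrays at 10.01 or below. Of all genes, 533 of 18193 (2.93%) had those 3 arrays as their 3 highest, among them the members *Hspa4l*, *Hspa5* and *Dnajc13*. Another 505 genes (2.78%) had them as their 3 lowest, among them *Dnajc15* and *Hspb8*. What set these arrays apart was not tested. They were used as labelled. Whether each label belongs to its array was not tested either, and every *c*35 value and every difference between the lines rests on those labels. With them left out together, which leaves 1 naive *c*35 array that is assumed to vary like the other groups, the excess of the wild-type response of *Hspa4l* was 0.91 with TCDD (adjusted p = 0.0218) and 1.17 with BaP (adjusted p = 0.00168).

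**Figure D3:**
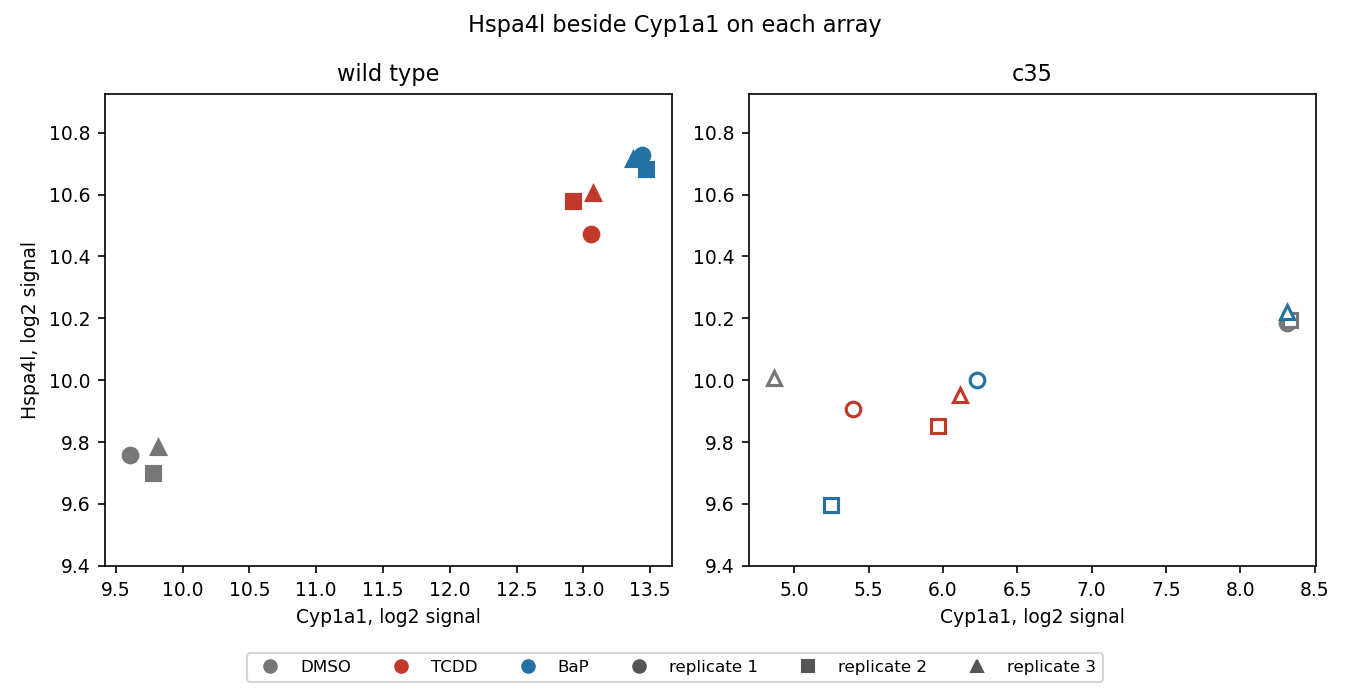
*Hspa4l* signal (vertical axis, log2) against *Cyp1a1* signal (horizontal axis, log2) on each array of wild-type (left, filled) and *c*35 cells (right, open), coloured by treatment and shaped by replicate. The wild-type arrays form a naive and a ligand-treated cluster, and 3 *c*35 arrays, 2 with DMSO and 1 with BaP, lie together at a *Cyp1a1* signal of 8.32 to 8.34.

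The other HSP110 genes did not rise. *Hspa4*, the closest relative of *Hspa4l*, gave 11.40, 11.14 and 11.12 in naive wild-type cells, 11.03, 11.02 and 11.02 with TCDD and at most 11.09 with BaP. All ligand-treated arrays were below the naive ones, and the differences of -0.20 and -0.17 were not called (adjusted p = 0.195 and 0.149). Without naive replicate 1, the highest of the 3, they were -0.11 and -0.08. *Hsph1*, which is heat inducible, changed by -0.07 with TCDD and -0.06 with BaP, with arrays that overlapped.

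Of the cytosolic HSP70 and HSP90 genes, *Hspa8*, the constitutive HSP70 that also strips clathrin from vesicles, was lower with both ligands without reaching 1.5-fold. Its arrays read 13.30, 12.99 and 13.05 when naive, 12.70, 12.77 and 12.88 with TCDD and 12.78, 12.88 and 12.87 with BaP. The groups did not overlap, and the differences of -0.33 (adjusted p = 0.0249) and -0.27 (adjusted p = 0.0256) passed the p threshold but not the minimum change. Without the intensity trend the adjusted p with TCDD was 0.0928, and without TCDD replicate 1 or BaP replicate 1 those of the ligands were 0.148 and 0.121. Without naive replicate 1 the BaP difference was -0.17. Its 3 other probe sets gave -0.30 to -0.17 with TCDD and -0.25 to 0.06 with BaP, none with an adjusted p below 0.05. The probe set used carries the suffix x_at, which marks probes that may also bind other transcripts. *Hsp90aa1*, the heat-inducible cytosolic HSP90, was at 12.35 to 12.62 on naive arrays, 12.29 to 12.61 with TCDD and 12.23 to 12.57 with BaP, so that the 3 groups lay over each other. The heat-inducible *Dnajb1* likewise changed by 0.10 with TCDD and -0.01 with BaP, and the small heat shock proteins *Hspb1* by -0.02 and 0.04 and *Hspb8* by -0.08 and -0.22. *Dnaja1*, which works with HSPA8, changed by -0.14 and -0.15, and none of these differences was called. Of the 12 measured members known as heat inducible or as their constitutive partners, *Hspa4l* alone was called with either ligand.

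The ER members were led by *Dnajb9* (also ERdj4), a cochaperone that binds unfolded proteins with BiP and restrains the stress sensor IRE1. Its single probe set, 1417191_at, gave 7.84, 8.20 and 8.08 in naive wild-type cells, 8.49, 8.26 and 8.21 with TCDD and 9.10, 8.98 and 8.82 with BaP. The BaP arrays were above all other wild-type arrays. The rise with BaP was 0.93 ± 0.16 (SE, adjusted p = 0.000843), and it remained called under all 16 alternatives, at 0.83 to 1.01. With TCDD it was 0.28 (95% interval -0.04 to 0.60, adjusted p = 0.486), although the lowest TCDD array was just above the highest naive one.

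*Dnajb9* was also the single member called between the ligands in wild-type cells, where 0.258% of all genes were called. TCDD minus BaP was -0.65 ± 0.16 (SE, adjusted p = 0.0434). This call ended without the intensity trend and when any 1 of the 6 arrays was left out, with adjusted p-values up to 0.169 and differences from -0.73 to -0.58. TCDD and BaP were given at different concentrations.

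In *c*35 cells *Dnajb9* gave 8.32, 8.29 and 8.01 with DMSO, 8.37, 8.05 and 8.34 with TCDD and 8.40, 7.65 and 8.33 with BaP. The 3 groups overlapped, and no value reached the lowest BaP array of the wild type. The BaP response in wild-type cells exceeded that in *c*35 cells by 1.01 ± 0.22 (SE, adjusted p = 0.0183). That call ended in 5 of 23 alternatives, among them the one without the 3 *c*35 arrays of high *Cyp1a1* signal, at 0.92 (adjusted p = 0.307). In that setting the *c*35 differences were 0.24 with TCDD and 0.01 with BaP.

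The 250 bases upstream of *Dnajb9* and of *Hspa5* are shown for comparison, from GRCm38.p6 chr12:44210069-44210318 on the minus strand and chr2:34771840-34772089 on the plus strand. Capitals mark the ER stress element, CCAAT and CCACG with 9 bases of any kind between them, whose first base lies 65 bases upstream of the *Hspa5* start.
Dnajb9: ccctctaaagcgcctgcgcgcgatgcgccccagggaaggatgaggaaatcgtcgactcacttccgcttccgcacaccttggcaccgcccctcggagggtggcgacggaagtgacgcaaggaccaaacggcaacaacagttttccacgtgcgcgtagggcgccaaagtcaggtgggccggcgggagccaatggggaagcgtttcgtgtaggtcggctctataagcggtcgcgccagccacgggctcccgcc
Hspa5: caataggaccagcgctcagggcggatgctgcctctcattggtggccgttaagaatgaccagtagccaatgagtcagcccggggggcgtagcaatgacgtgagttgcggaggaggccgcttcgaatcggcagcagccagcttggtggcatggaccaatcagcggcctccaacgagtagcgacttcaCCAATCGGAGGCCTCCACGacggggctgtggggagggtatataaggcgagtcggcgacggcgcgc
The element stood on either strand in 3 of 59 members (5.08%), namely *Hspa5*, *Hsp90b1* and *Dnajc3*, and in 0.13% of 27025 genes. None of GCGTG, GAANNTTC, TTCNNGAA and the ER stress element was found in the *Dnajb9* window.

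Of the 12 ER members, *Dnajb9* was the 1 called with BaP, all 12 estimates were above 0, and their median was 0.20 beside 0.00 over all genes. The estimates come from the same arrays and are not independent. The list was drawn up with earlier results of these data known and includes *Dnajb9*, so its counts are descriptions. Without the minimum change, *Dnajc3* (also p58IPK, which binds nascent proteins in the ER) and *Dnajb12*, an ER membrane cochaperone, passed as well, so that 3 of 12 did, against 3.33% of all genes higher. *Dnajb12* stood at 0.31 (adjusted p = 0.0395), with 8.26, 8.44 and 8.54 when naive and 8.77, 8.66 and 8.73 with BaP and no overlap. *Dnajc3* stood at 0.33 (adjusted p = 0.0272), with 9.45, 9.50 and 9.78 when naive and 9.76, 9.95 and 10.03 with BaP, arrays that overlapped. With 1 array left out these adjusted p-values went up to 0.172 for *Dnajb12* and 0.145 for *Dnajc3*. On their other probe sets *Dnajb12* gave -0.18 and *Dnajc3* between -0.04 and 0.18, none with an adjusted p below 0.05.

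*Hspa5* itself gave 12.89, 12.70 and 12.73 in naive wild-type cells, 12.73, 12.72 and 12.67 with TCDD and 12.94, 13.09 and 12.99 with BaP. The BaP arrays were above all other wild-type arrays, and the difference from naive cells was 0.23 (adjusted p = 0.0628). TCDD minus BaP stood at -0.30 (adjusted p = 0.0399), which made *Hspa5* 1 of 2 members that passed between the ligands without the minimum change, against 1.67% of all genes. It no longer passed when any 1 of the 6 arrays was left out. *Hspa13*, an HSP70 relative of the ER, gave 10.53, 10.76 and 10.62 when naive and 10.89, 11.06 and 10.93 with BaP, a difference of 0.33 that was not called (adjusted p = 0.0744). *Dnajb11* (ERdj3) and the disulfide reductase *Dnajc10* (ERdj5) both stood at 0.14, and *Hsp90b1*, the HSP90 of the ER, at 0.05. With TCDD the 12 estimates ran from -0.23 to 0.28 with a median of 0.03, and none had an adjusted p below 0.05.

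**Figure D4:**
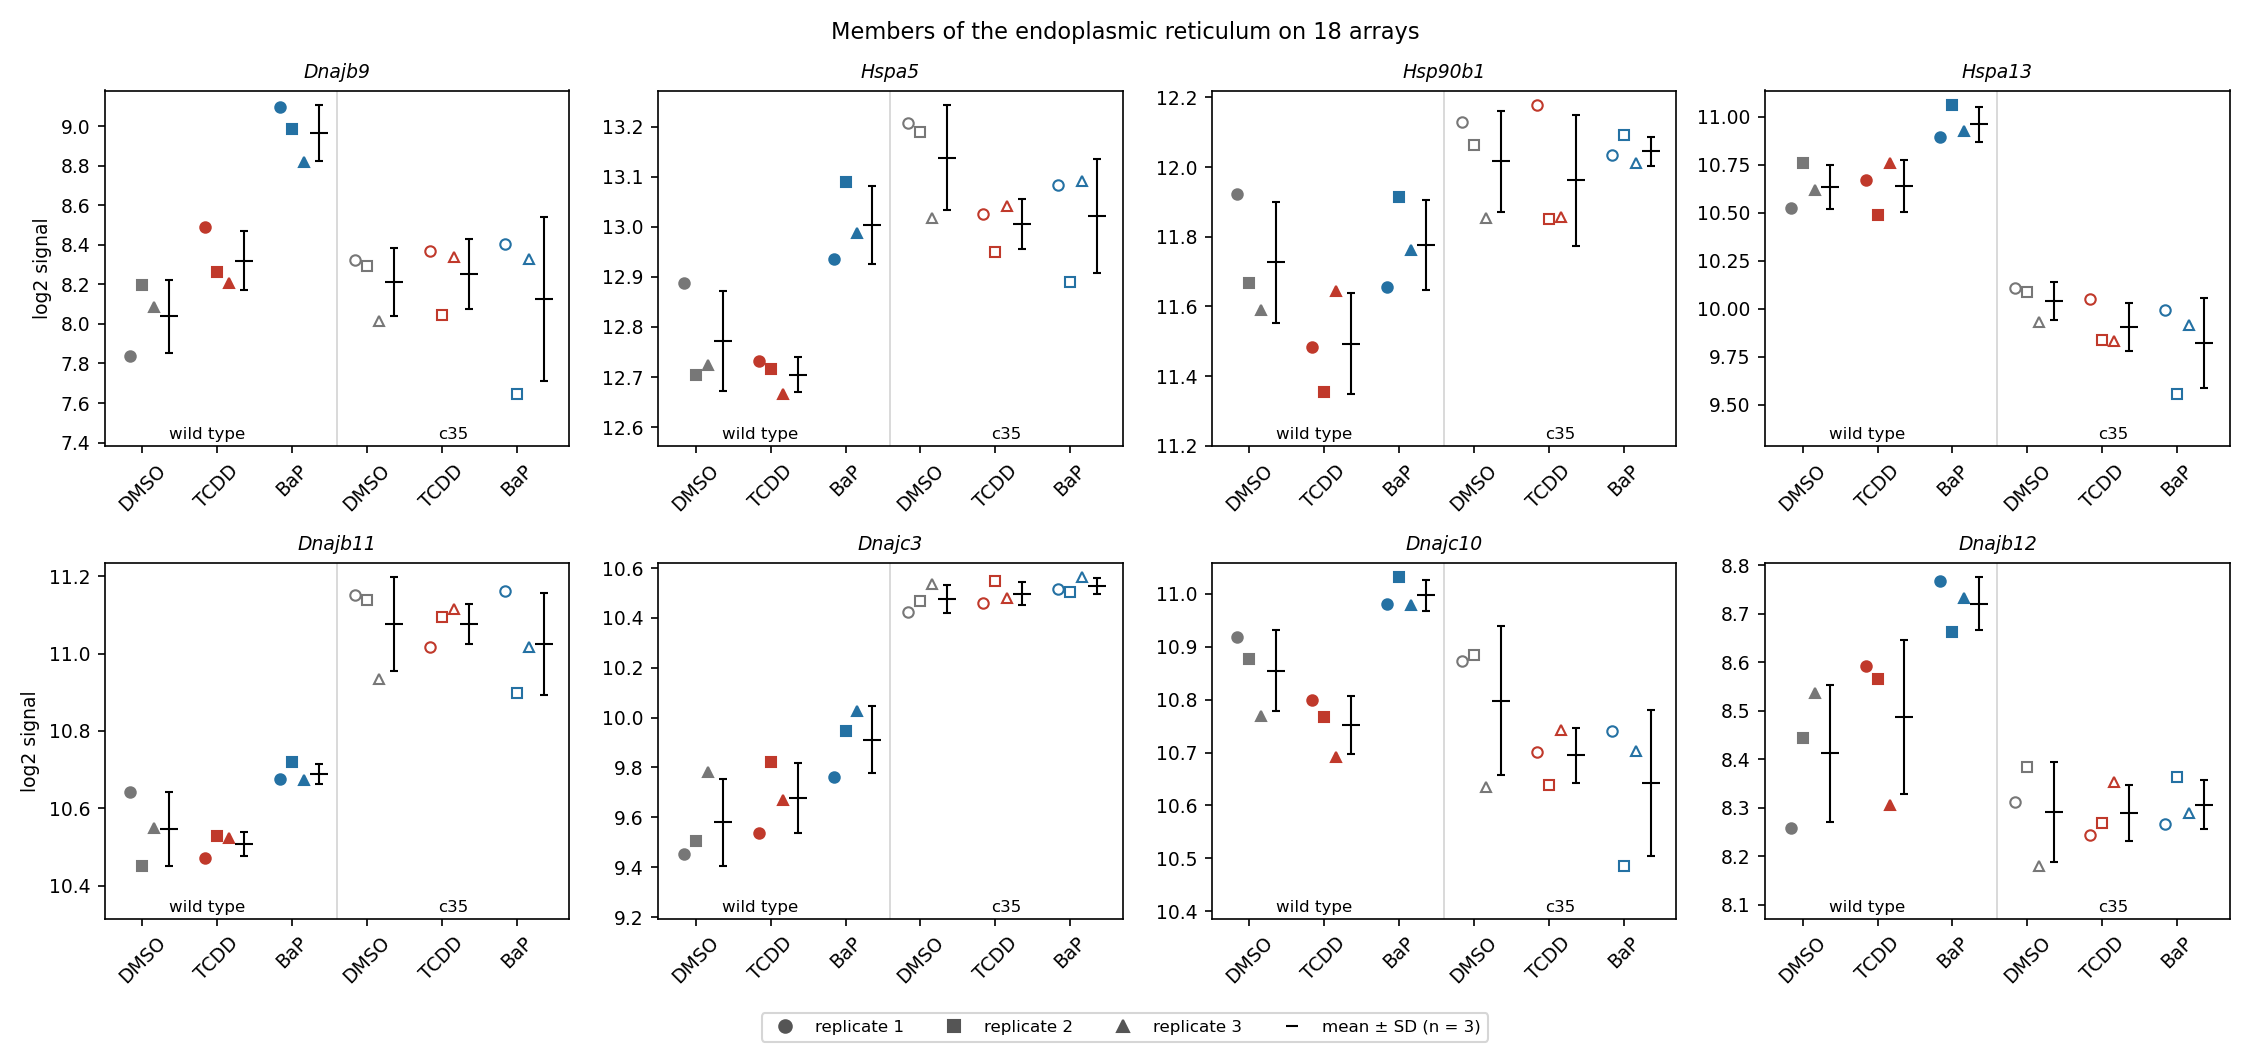
Log2 signal (vertical axis, a scale of its own in each panel) of 8 members of the endoplasmic reticulum on 18 arrays by treatment, wild type filled and *c*35 open; marker shapes give the replicate, and the horizontal dashes with bars the mean ± SD of 3 arrays. The wild-type BaP arrays of *Dnajb9*, 8.82 to 9.10, are the highest of its panel, and *Dnajc3* and *Dnajb11* lie higher in naive *c*35 than in naive wild-type cells.

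Of 13 ER folding genes outside the members, *Ero1a*, the oxidase that recharges protein disulfide isomerases, was called with BaP. It rose by 0.60 (adjusted p = 0.000231), from 9.99 to 10.08 on naive arrays to 10.56 to 10.69 with BaP. *Manf*, a secreted ER stress protein, stood at 0.37 (adjusted p = 0.0335), under the minimum change, and at 0.22 without naive replicate 1 (adjusted p = 0.118). Of 16 HSP90 cochaperones and proteins of the AHR complex, none was called with either ligand. With BaP 3 of them were lower at an adjusted p below 0.05 without reaching 1.5-fold. Without the minimum change 3.14% of all genes were lower. The 3 were the immunophilins *Fkbp4* (-0.39) and *Fkbp5* (-0.35) and the dynein cofactor *Nudc* (-0.23). With 1 array left out the adjusted p went up to 0.0584 for *Fkbp5* and 0.14 for *Nudc*. Of 14 HSP70 exchange factors and partners, 14 subunits of the TRiC chaperonin and prefoldin and 5 heat shock factors and their regulators, none was called with either ligand.

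The mitochondrial members gave no call with either ligand, 0 of 9. *Hspd1*, the HSP60 chaperonin, read 13.77, 13.40 and 13.47 in naive wild-type cells against 13.30 to 13.35 with TCDD and 13.37 to 13.40 with BaP, differences of -0.22 and -0.15 that were not called. Without naive replicate 1 they were -0.11 and -0.04. Its lid *Hspe1* read 12.50, 13.03 and 12.95 when naive, where wild-type DMSO replicate 1 was the lowest of all wild-type arrays. *Hspa9*, the mitochondrial HSP70, changed by -0.14 with TCDD and -0.10 with BaP and its cochaperone *Dnaja3* by -0.01 and -0.23, none called. *Dnajc15*, a cochaperone of the inner membrane, gave 8.82, 9.74 and 9.59 when naive and 9.85, 9.92 and 9.90 with TCDD, a difference of 0.51 (adjusted p = 0.139). *Dnajc17*, a nuclear member linked to splicing, gave 8.57, 9.99 and 9.57 when naive and 9.75 to 10.01 with TCDD, at 0.53 (adjusted p = 0.321). In both genes replicate 1 was the low naive array, the one with the widest *Actb* 3′ minus 5′ difference. Without naive replicate 2, *Dnajc15* and *Dnajc17* joined *Hspa4l* as called with TCDD. Without naive replicate 1 *Dnajc15* stood at 0.22 and *Dnajc17* at 0.12 with TCDD. *Dnajc28* stood at 0.39 with BaP (adjusted p = 0.0337), below the minimum change, with 5.47 to 5.62 on naive and 5.85 to 6.09 on BaP arrays. Its other probe set gave -0.09, and with 1 array left out its adjusted p went up to 0.159.

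In *c*35 cells none of the 72 members was called with TCDD or BaP, and 0.0% of all genes were. At an unadjusted p below 0.05 (limma) there was 1 member with TCDD, *Hspa4l*, and there were 5 with BaP, against 5.16% and 3.53% of all genes. The estimates ran from -0.23 to 0.17 with TCDD and from -0.26 to 0.24 with BaP. The 95% intervals of all members stayed between -0.44 and 0.62 with TCDD and between -0.47 and 0.55 with BaP.

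Between the naive lines more members differed. Of the 72, 10 were called (13.9%), 4 higher and 6 lower in the wild type, where 14.0% of all genes were called, 7.52% higher and 6.52% lower. The share of members was thus near that of all genes. Without the minimum change 37 members passed (51.4%), 12 higher and 25 lower, against 37.9%, 18.7% and 19.1% of all genes. The arrays of the lines did not overlap for 42 members (58.3%), against 47.4% of all genes. The median difference over the members was -0.10, beside -0.03 over all genes. The lines also differed in the *Actb* 3′ minus 5′ signal, 0.81 to 1.38 on naive wild-type and 0.33 to 0.43 on naive *c*35 arrays. With that signal as a covariate 12 members were called, 7 higher and 5 lower. *Dnajc15* (-0.19), *Dnajc21* (-0.44) and *Hspb8* (0.56) were no longer among them. The shares of all genes called with this covariate are not given here, so these counts cannot be set against them. Markers of cell types differed between the naive lines too. Of the hepatocyte markers *Alb* stood at 2.46 and *Fgb* at -0.95, of the fibroblast markers *Pdgfra* at 1.59, *Pdgfrb* at 1.20 and *Col3a1* at -1.29, and of the leukocyte markers *Csf1r* at -1.25 and *Cd68* at -1.39. These were 2 of 11, 3 of 6 and 2 of 5 measured, with 0 of 4 endothelial markers, and their part in the members' differences was not tested.

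*Hspa12a*, a distant relative of HSP70, differed most. It gave 4.56, 4.22 and 4.50 in naive wild-type cells and 6.93, 6.97 and 6.93 in naive *c*35 cells, a difference of -2.51 ± 0.14 (SE, adjusted p = 1.38e-11). Its level stayed between 4.16 and 4.81 on all wild-type arrays and between 6.76 and 6.99 on all *c*35 arrays. All 4 probe sets were lower in the wild type, by -2.51 to -0.31, and 2 of them were called.

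Of the HSP70 cochaperones, *Dnaja1* read 11.64, 11.50 and 11.45 in naive wild-type and 12.35, 12.38 and 12.39 in naive *c*35 cells, at -0.84 (adjusted p = 1.96e-08). *Dnajc21*, which serves ribosome assembly, differed by -1.04 (adjusted p = 0.000224) with 8.94, 9.10 and 9.84 against 10.18, 10.27 and 10.56. *Dnajc15* differed by -0.68, and only by -0.39, no longer called, without wild-type DMSO replicate 1. In none of the 3 did the groups overlap. In the other direction, *Dnajb4*, a cytosolic partner of HSP70, was higher in wild-type cells by 0.88 (adjusted p = 3.87e-08), with 10.38, 10.30 and 10.30 against 9.46, 9.37 and 9.50. The ER membrane member *Dnajb14* was higher by 0.82 (adjusted p = 2.29e-06), with 7.24, 7.17 and 7.22 against 6.49, 6.34 and 6.34. Other probe sets of these genes gave smaller differences. The 3 of *Dnaja1* ran from -0.84 to -0.04 and the 5 of *Dnajc21* from -1.04 to 0.04. The 3 of *Dnajb4* ran from 0.09 to 0.88, and the 2 of *Dnajb14* gave 0.15 and 0.82. In each of these 4 genes only 1 probe set was called.

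Of the small heat shock proteins, *Hspb6* (HSP20) was lower in the wild type by -0.62 (adjusted p = 4.41e-06), with 8.48 to 8.56 against 9.03 to 9.29. *Hspb8*, the partner of BAG3 in the clearance of damaged proteins, was higher by 0.60 (adjusted p = 2.05e-07), with 10.85 to 10.99 against 10.25 to 10.40. Both lay close to the minimum change. The 3 probe sets of *Hspb8* ran from -0.02 to 0.60, and 1 of them was called. *Hspb1* did not pass, at -0.14 with overlapping arrays.

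Among the ER members, *Dnajc3* was lower in the wild type by -0.90 (adjusted p = 5.12e-08), with 9.45, 9.50 and 9.78 against 10.42, 10.47 and 10.54. *Hspa13* was higher by 0.59 (adjusted p = 8.86e-05), with 10.53, 10.76 and 10.62 against 10.11, 10.09 and 9.93. This difference lay close to the minimum change, and the call held in 12 of 17 alternatives. *Dnajb11* (-0.53), *Hspa5* (-0.37) and *Hsp90b1* (-0.29) had adjusted p-values below 0.05 without reaching 1.5-fold. *Dnajb9* did not pass, at -0.17 with a 95% interval from -0.49 to 0.15. *Hsp90aa1* was lower in the wild type by -0.57 (adjusted p = 2.8e-05), just under the minimum change, with 12.41, 12.35 and 12.62 against a mean of 13.03. Its 5 probe sets ran from -0.62 to -0.12, and 1 of them was called lower.

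**Figure D5:**
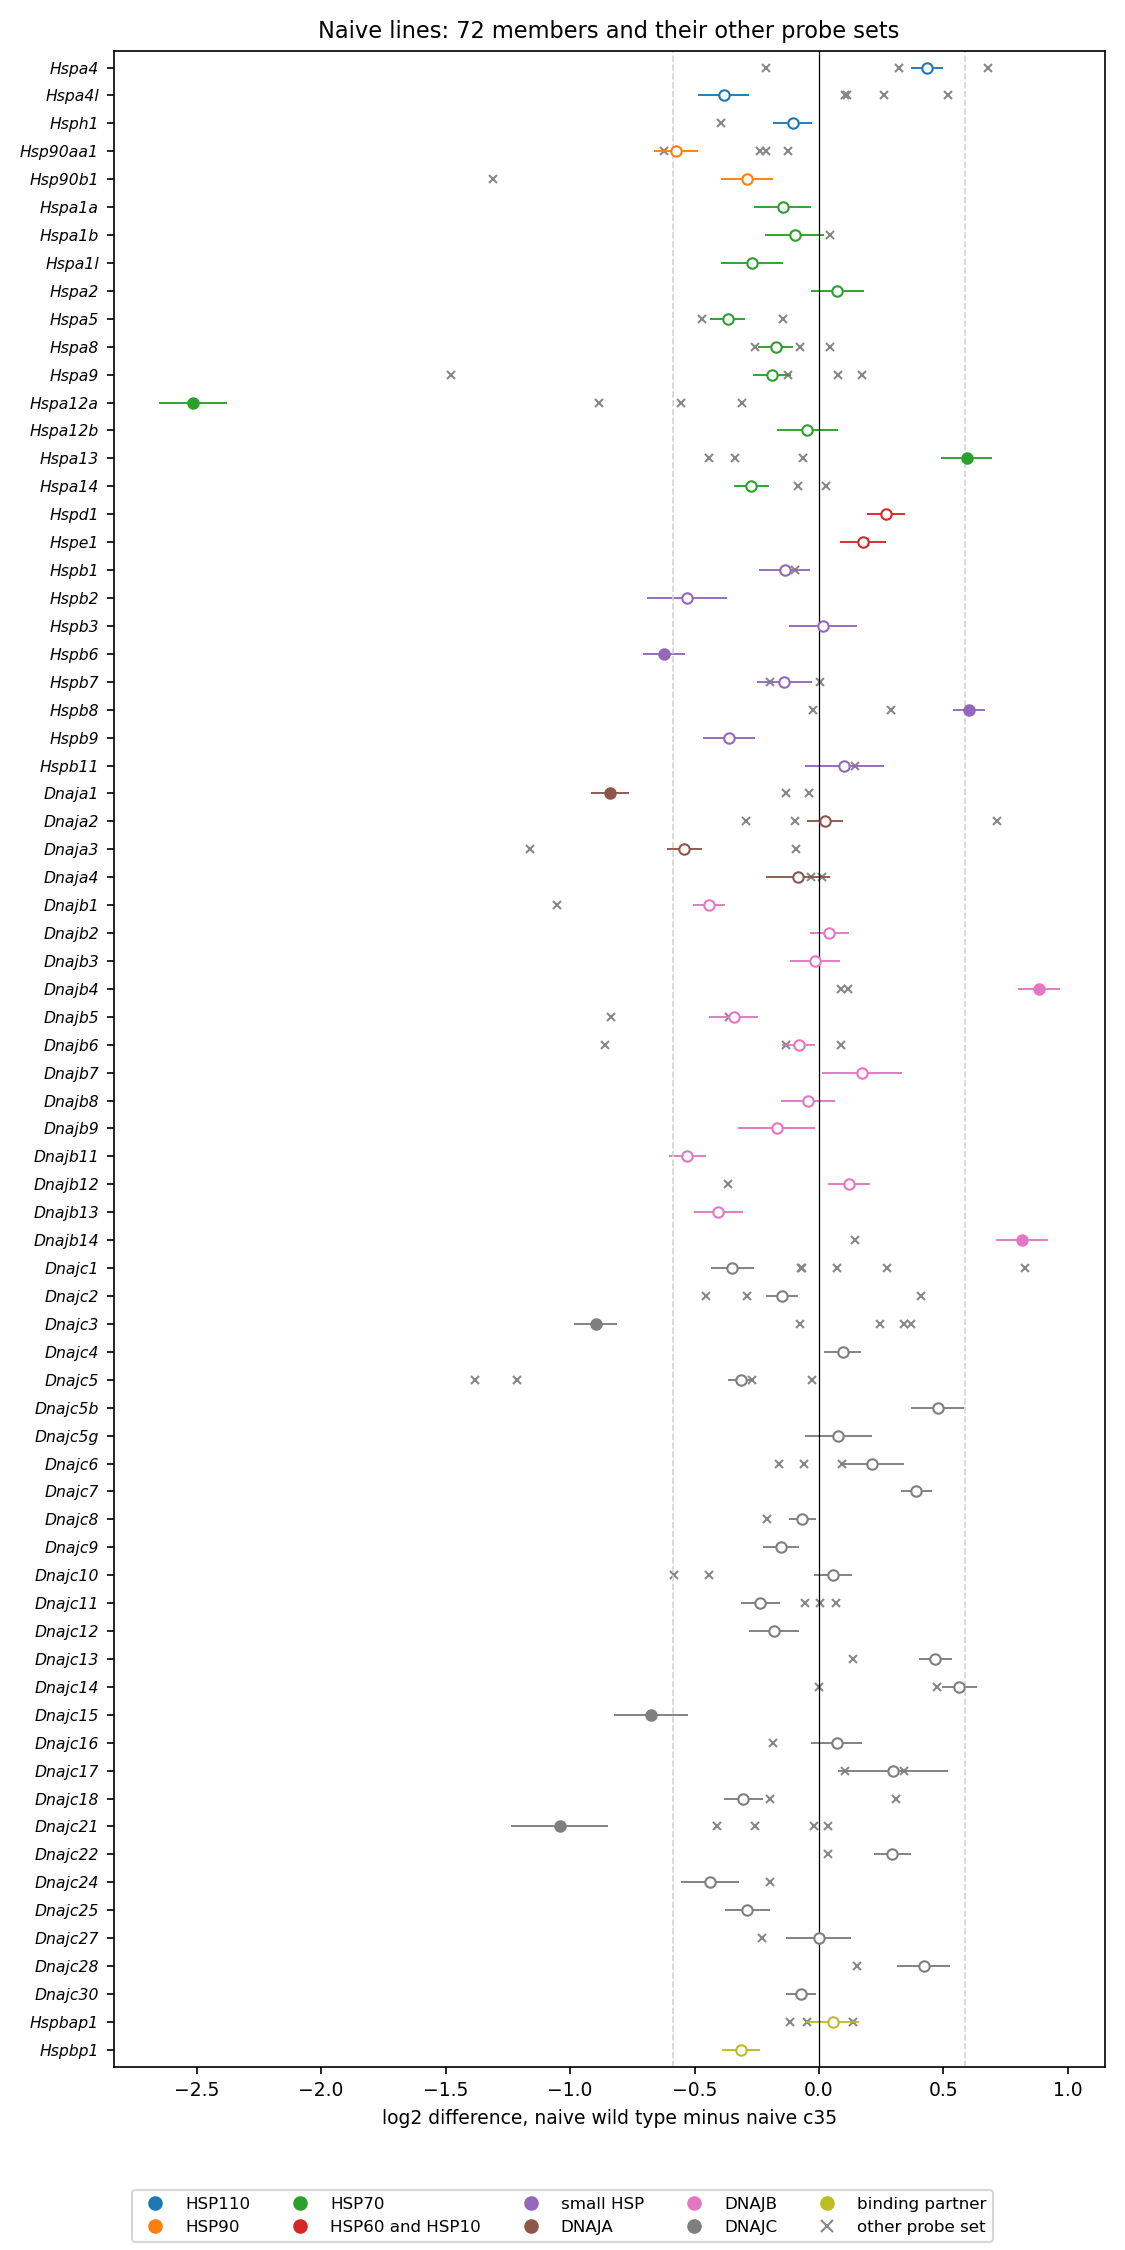
Log2 difference between naive wild-type and naive *c*35 cells (horizontal axis, wild type minus *c*35) for the 72 members, 1 row per gene coloured by class; circles with standard error bars are the probe sets of highest mean, filled where called, grey crosses are the other probe sets, and dashed lines mark 1.5-fold. *Hspa12a* is furthest left at -2.51, and the crosses of *Hspa9* and *Dnajc5* lie far from their circles.

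The probe sets of a gene often gave different values. Of the 46 members with several probe sets, 19 (41.3%) had at least 1 called and 11 (23.9%) had a call only on a probe set other than the one of highest mean. Over all 9010 genes with several probe sets the shares were 32.8% and 15.9%. The span between a gene's probe sets had a median of 0.50 in the members and 0.36 in all those genes, and it was above 1 in 10 members (21.7%) and in 13.5% of the genes. No member was called in both directions, and only 114 of those 9010 genes were. *Hspa9* ran from -1.48 to 0.17, the vesicle cochaperone *Dnajc5* from -1.38 to -0.03, and *Hsp90b1* gave -0.29 and -1.31. *Dnajc3* ran from -0.90 to 0.37 and *Hspa13* from -0.44 to 0.59. *Hspa4l* ran from -0.38 (adjusted p = 0.00574) to 0.52 (adjusted p = 0.00491), so that the naive lines could not be put in order for this gene, while its 5 probe sets rose together with the ligands. When the probe sets of each gene were averaged, 7 members were called and all were lower in the wild type. *Dnaja1*, *Dnajb4*, *Dnajb14*, *Dnajc3*, *Dnajc21*, *Hspa13* and *Hspb8* were no longer among them. The shares of all genes called higher and lower with averaged probe sets are not given here. Whether that direction is particular to the members can therefore not be told.

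Some partners of the chaperones outside the members were called between the naive lines, where 14.0% of all genes were, 7.52% higher and 6.52% lower. Of 14 HSP70 exchange factors and partners, 2 were higher and 3 lower in the wild type. *St13*, the HSP70-interacting protein HIP, stood at 1.86 and *Bag6* at 1.35, and the exchange factors *Bag5* at -1.30, *Grpel2* at -0.86 and *Bag1* at -0.78. Of 16 HSP90 cochaperones and AHR complex genes, *Ahr* (1.01) and *Arnt* (0.74), its partner on DNA, were higher and *Sugt1* (-0.85), *Fkbp4* (-0.78) and the HSP90 activator *Ahsa1* (-0.68) were lower. Of 13 ER folding genes, the protein disulfide isomerase *Pdia4* (1.09) and the lectin chaperone *Canx* (0.86) were higher, and *Ero1a* (-0.92) and *Herpud1* (-0.61) were lower. None of 14 TRiC and prefoldin genes and none of 5 heat shock factors and regulators was called. These partners are given by their probe set of highest mean alone, and any other probe sets are not given here.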

How the data were processed

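Gene expression was measured on 18 arrays, 3 for each of 6 groups taken from the sample titles. The deposited values are log2 signals. The submitters' processing notes name robust multiarray averaging (RMA, version not given in the sources used here), which corrects background, normalizes between arrays and summarizes each probe set. RMA compresses low signals, so changes of dim genes are understated. The log2 values were used as deposited. Of 45101 probe sets, 64 controls were left out. Symbols came from the platform annotation: 34945 of the tested probe sets had 1 symbol, 932 several and 9160 none, and all 72 members matched current gene names.

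Using limma 3.58.1 (R 4.3.3), a model with a mean for each group was fitted over the 18 arrays, and eBayes was run with an intensity trend. The p-values of each comparison were adjusted over 45037 probe sets. The fit was tested on simulated data. The number of arrays limits the precision. Tables and figures used pandas 2.3.3, numpy 2.4.6 and matplotlib 3.10.9. Upstream sequences came from RefSeq on GRCm38.p6.

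Members and lists were chosen with earlier results of these data known. The genes named are *Hspa4l*, a core list of members whatever their values, all called members, and for each list outside the members up to 3 called genes of largest change in a comparison. The markers given between the naive lines and *Ahsa1*, *Arnt*, *Bag1*, *Fkbp5*, *Grpel2*, *Herpud1*, *Manf*, *Nudc*, *Dnajb12*, *Dnajc5*, *Dnajc10*, *Dnajc13*, *Dnajc17* and *Dnajc28* were chosen after their values were seen. The alternatives were no intensity trend, array weights, quantile normalization, median centring, probe sets below the median signal left out, probe sets averaged by gene, a replicate block, a covariate for the *Actb* 3′ minus 5′ signal, another minimum change, only the arrays compared, and each array left out. Leaving out the 3 *c*35 arrays of high *Cyp1a1* signal together was added after seeing the data. A gene called with the minimum change also passes without it. That alternative, counted among those in which a call held, therefore could not end a call.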

Additional observations from a re-analysis of the deposited data

Results flagged for a closer look

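The response to a ligand differed between the lines for 2 members, by the interaction test across all probe sets. For *Hspa4l* the response of wild-type cells exceeded that of *c*35 cells by 1.03 with TCDD and by 1.15 with BaP on the log2 scale, called under all 23 alternatives. For *Dnajb9* the excess with BaP was 1.01, called under 18 of 23 alternatives, with values from 0.77 to 1.15 and adjusted p-values (limma) from 0.00608 to 0.307.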

How the results depend on the processing

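With no minimum change the members called rose from 1 to 2 with TCDD, from 2 to 6 with BaP, from 1 to 2 between the ligands and from 10 to 37 between the naive lines. Without the intensity trend the ligands differed in 0 members. The difference in BaP response was called in 1 member, not 2, with only the arrays compared, and in 1 without the 3 *c*35 arrays of high *Cyp1a1* signal. With each array left out in turn, members called ranged from 1 to 3 for TCDD, from 2 to 3 for BaP, from 0 to 1 between the ligands, from 9 to 12 between the naive lines, from 1 to 1 for the difference in TCDD response, from 1 to 3 for that in BaP response and from 0 to 0 for both ligands in *c*35 cells. Without wild-type DMSO replicate 2 the TCDD count was 3, and without wild-type BaP replicate 1 or *c*35 DMSO replicate 1 or 2 the count for the difference in BaP response was 1. *Hspa13* between the naive lines reversed to -0.063 with probe sets averaged by gene. Only *Hspa12a* kept its call between the naive lines in all 17 alternatives. The causes were not tested.

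Same-numbered replicates did not deviate together in every pair (correlations of -0.26 to 0.21), so the numbers were not taken as pairs. With the replicate number as a block the counts were 1 with TCDD, 2 with BaP, 1 between the ligands, 10 between the naive lines, and 1 and 2 for the differences in response, as without it. After median centring the median change over all genes, each by its probe set of highest mean, lay between -0.054 and 0.012 across the comparisons. Signals near the bottom of the scale, as for *Hspa1a*, limit what can be seen of those genes.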
